A study of Mus musculus with 44 samples.

Results

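RNA from D1 nuclei of male mice was compared between a vector carrying retinoid X receptor alpha (RXRa) and a control vector carrying only enhanced green fluorescent protein (EGFP). By their labels, 9 of the 44 libraries in the series belong to this comparison, 4 with RXRa (RXRa 1, 2, 3 and 5) and 5 with EGFP (EGFP 1 to 5). D1 is the name in use for the striatal projection neurons that express the dopamine receptor gene Drd1. The other libraries were D1 nuclei of females, D2 nuclei of both sexes and bulk nucleus accumbens, the ventral part of the striatum. All 9 male D1 samples came from nucleus accumbens infused with virus, followed by sorting of nuclei and extraction of total RNA. The control vector was AAV9-CAG-DIO-EGFP, and the RXRa vector was AAV9-CAG-DIO-EGFP-P2A-RXRa. In both, the insert is inverted until Cre recombinase turns it, so each mouse also needs a source of Cre. The labels give no Cre line, strain, age or time after infusion, and do not say whether each library came from its own animal or from a pool. The p-values below therefore measure the spread between these samples, which may be partly technical.

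RXRa is a nuclear receptor that binds DNA mostly as a heterodimer. Its partners include the retinoic acid receptors, the liver X receptors, the vitamin D receptor and the thyroid hormone receptors, and some of these pairs can be activated by ligands of either receptor. The retinoic acid receptor genes, Rarb above all, are expressed in the striatum, where retinoic acid signalling takes part in the development of projection neurons. D1 neurons make the peptides substance P, from Tac1, and dynorphin, from Pdyn, whereas D2 neurons make enkephalin, from Penk.

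Levels are given as CPM, counts per 1000000 of a library's effective size after TMM scaling, and differences as log2 fold changes with RXRa over EGFP. No gene differed between the vectors at the threshold used. Of 43902 genes tested with edgeR, 0 had an adjusted p under 0.05 (0%), and 1326 (3.02%) had an unadjusted p under 0.05. Among those 1326, 492 (1.12% of all tested) were higher with RXRa and 834 (1.9%) were lower. The groups did not overlap for 567 genes (1.29%), of which 192 (0.437%) were higher in every RXRa library and 375 (0.854%) were lower in every one. The fold change was above 0 for 47.9% of genes, and its median was -0.01. DESeq2 also gave 0 adjusted and 926 unadjusted (2.11%), and limma voom with sample weights gave 0 and 2417 (5.51%). A fit of the 9 libraries alone tested 41561 genes and gave 0 and 1976 (4.75%).

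The intervals behind these counts were narrow for most genes with higher counts. The median standard error was 0.16 on the log2 scale over all genes and 0.10 over the 14584 genes with a mean of at least 10 CPM. Among the latter, 14457 (99.1%) had a 95% interval that lay inside ±1 log2, and 89.6% had one inside ±0.5. Over all 43902 genes, 40767 intervals (92.9%) lay inside ±1. A mean of at least 10 CPM does not by itself show expression. D130009I18Rik, a long gene with no bulk count, was at 192 CPM in RXRa 5. A narrow interval can therefore describe background counts.

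Total counts per library ran from 12211655 in EGFP 2 to 27073126 in EGFP 1, and between 51858 and 54272 genes had a count. The total count did not separate the vectors (exact two-sided permutation p = 0.889), nor did the share of counts in mitochondrially encoded genes (p = 0.46 by the same exact test). EGFP 2 stood apart by its ribosomal-repeat counts, and RXRa 1 by Xist, as described below. Leaving out EGFP 2 gave 0 called genes and 1214 of 43830 (2.77%) at an unadjusted p under 0.05, and leaving out RXRa 1 gave 0 and 844 of 44514 (1.9%). Among the fits that left out 1 library, the unadjusted count was highest without RXRa 3, at 2356, again with 0 called.

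The vector sequences were read first, as a check of the labels. The counts include a codon-altered RXRa sequence that only the RXRa vector holds and a GFP sequence that both vectors hold. Vector RXRa was at 133, 255, 43.4 and 198 CPM in RXRa 1, 2, 3 and 5. In EGFP 1 to 5 it was at 0.104, 0.877, 0.585, 0.424 and 0.153 CPM, from 3, 10, 12, 11 and 4 counts. The lowest RXRa library was far above the highest EGFP library. On the scale of log2(CPM + 1) the mean difference was 6.56 (exact two-sided permutation p = 0.0159, the smallest that 4 against 5 can give, Benjamini-Hochberg 0.0476 over 3 comparisons).

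Vector GFP was at 118, 422, 452, 241 and 230 CPM in EGFP 1 to 5 and at 151, 234, 46.9 and 202 CPM in RXRa 1, 2, 3 and 5. The groups overlapped, with RXRa 3 lowest and EGFP 2 and 3 highest. The mean difference was -0.95 (exact two-sided permutation p = 0.19). In each RXRa library the vector RXRa count was between 0.881 and 1.09 times its vector GFP count, so RXRa 3 was low for both parts of the insert. In the EGFP libraries that ratio was between 0.000663 and 0.00208.

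Endogenous Rxra (ENSMUSG00000015846, chromosome 2, 27676440 to 27762957, GRCm38) did not follow the vector. It was at 42.7, 42.0, 39.6, 39.6 and 39.1 CPM in EGFP 1 to 5 and at 32.7, 32.6, 41.0 and 45.0 CPM in RXRa 1, 2, 3 and 5. RXRa 1 and 2 lay below every control and RXRa 5 above every control. The log2 fold change was -0.10 (SE 0.11, 95% interval -0.33 to 0.12, edgeR adjusted p = 0.978), and the exact two-sided permutation p was 0.302. Coding genes of at least 5 kb with no bulk count had a median of 0.452 to 0.540 CPM per kb of gene. Rxra is a long gene, so its level need not lie above that background, and a change in its transcripts could be missed.

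**Figure D1:**
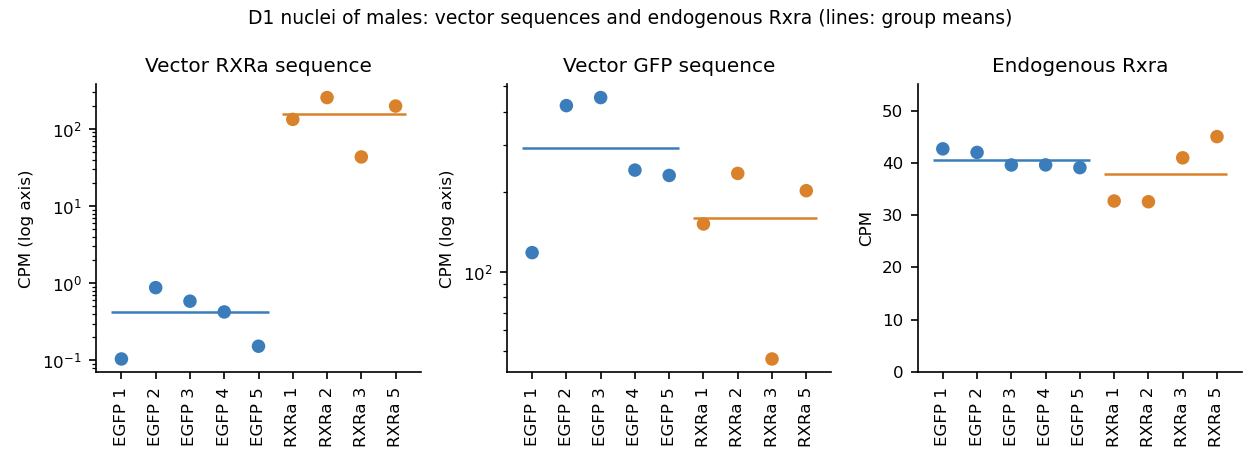
CPM of the vector RXRa sequence, the vector GFP sequence (both on log axes) and endogenous Rxra (linear axis from 0) in each of the 5 EGFP and 4 RXRa libraries, with lines at the group means. Vector RXRa separates the groups, from at most 0.877 CPM to at least 43.4 CPM, while vector GFP and Rxra overlap.

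The D1 label was checked against markers, with the male D2 libraries beside it. Drd1, which encodes the D1 dopamine receptor, was at 32.2 to 77.3 CPM in the 5 D1 EGFP libraries and at 6.85 to 15.1 CPM in the 5 D2 EGFP libraries, a ratio of means of 3.90. The ratio was 3.18 for Pdyn and 1.63 for Tac1. With RXRa the populations overlapped for Drd1, since D2 RXRa 3 was at 38.6 CPM, above D1 EGFP 4 and 5 at 34.6 and 32.2 CPM. In the other direction, Drd2 averaged 65.4 ± 3.88 CPM (SD, n = 5) in D1 EGFP and 763 ± 156 CPM (SD, n = 5) in D2 EGFP, 11.7 times higher in D2. Penk was 5.87 times and Adora2a, an adenosine receptor gene of D2 neurons, 3.58 times higher in D2. The markers thus lay on the side the label names in both directions, with D2 markers present in the D1 libraries and a smaller ratio for the D1 markers. Ebf1 and Eya1, listed here as D1 genes, barely differed between the populations, with ratios of 1.11 and 1.01.

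Within the male D1 libraries Drd1 was at 40.2, 77.3, 65.6, 34.6 and 32.2 CPM in EGFP 1 to 5 and at 83.8, 41.6, 47.0 and 63.7 CPM in RXRa 1, 2, 3 and 5. RXRa 1 was highest, and EGFP 2, EGFP 3 and RXRa 5 were above the other 5. The log2 fold change was 0.25 (SE 0.32, 95% interval -0.40 to 0.90). Tac1 was at 28.6, 58.4, 44.6, 24.5 and 24.9 CPM in EGFP 1 to 5 and at 74.5, 29.9, 36.6 and 53.6 CPM in RXRa 1, 2, 3 and 5, with a log2 fold change of 0.44 (SE 0.32, -0.21 to 1.08). Pdyn was at 30.2, 45.0, 41.5, 25.5 and 23.1 CPM and at 53.8, 24.2, 31.3 and 43.8 CPM in the same order, with a log2 fold change of 0.22 (SE 0.21, -0.21 to 0.65). The groups overlapped for all 3 markers, and the same 4 libraries were high for each. None of the 3 was called, each with an edgeR adjusted p of 0.978. Single libraries moved these values: without EGFP 2 the log2 fold changes of Drd1, Tac1 and Pdyn were 0.45, 0.67 and 0.35, and without RXRa 1 they were 0.04, 0.16 and 0.01. Without EGFP 2 Tac1 had an unadjusted p of 0.0477 by edgeR and an adjusted p of 0.952. The D2 marker Penk was highest in the same 4 libraries, at 129 and 75.9 CPM in EGFP 2 and 3 and 212 and 84.7 CPM in RXRa 1 and 5. It was at 30.1 to 62.5 CPM in the other 5. Adora2a did not share this order, with EGFP 3 at 15.7 CPM below EGFP 1 at 19.1 CPM. The same 4 libraries had the highest shares of counts in mitochondrially encoded genes, 0.0328% to 0.0494% against 0.0184% to 0.0288%. Their median level of coding genes with no bulk count was the lowest, 0.452 to 0.510 against 0.512 to 0.540 CPM per kb of gene. The cause of the order was not tested. The mix of nuclei in a library, the RNA per nucleus and the level of background cannot be told apart.

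**Figure D2:**
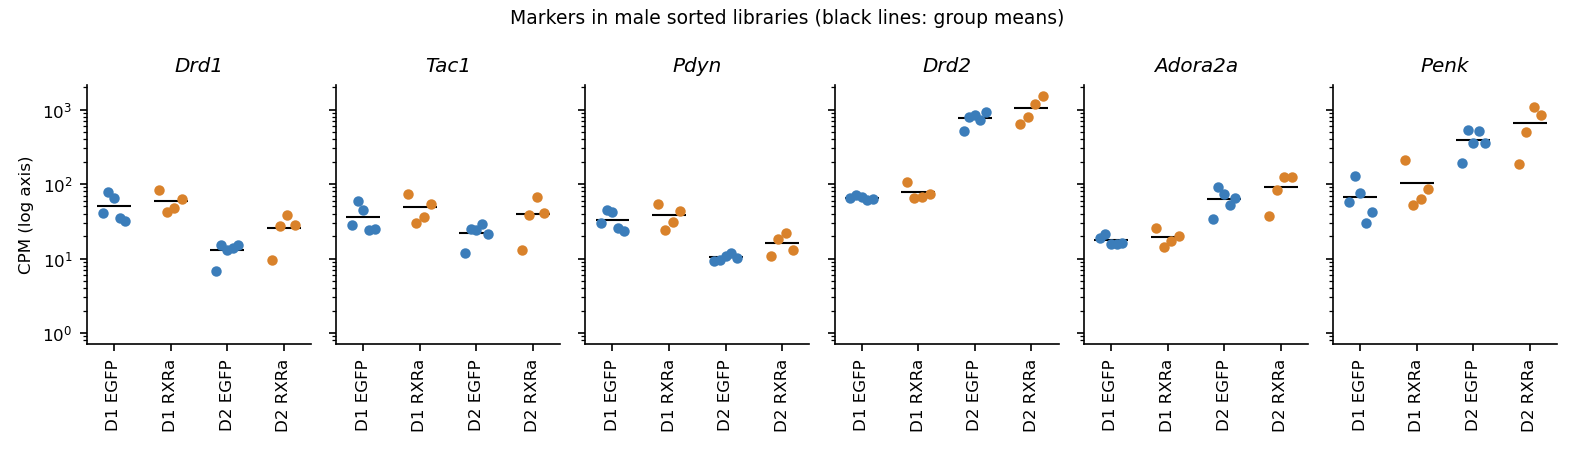
CPM on a log axis of 3 D1 markers (Drd1, Tac1, Pdyn) and 3 D2 markers (Drd2, Adora2a, Penk) in male sorted libraries, 1 point per library and black lines at group means. Drd2 and Adora2a lie lower in every D1 library than in every D2 library, while Drd1, Tac1 and Penk overlap between the populations. Within D1 the vector groups overlap for each gene.

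Genes of striatal projection neurons shared this order of libraries. For each library, the level of every gene of a list was divided by the gene's mean level in these libraries on the log2(CPM + 0.5) scale, and the median ratio over the list was taken. Over 24 projection neuron genes, such as Foxp1, Meis2 and Adcy5, it was 0.846, 1.13, 1.13, 0.847 and 0.804 in EGFP 1 to 5 and 1.44, 0.943, 0.891 and 1.16 in RXRa 1, 2, 3 and 5. RXRa 1 was highest and EGFP 5 lowest. The same measure over 12 astrocyte genes stayed between 0.915 and 1.06. The summed level of these astrocyte genes was nevertheless highest in RXRa 1, RXRa 5 and EGFP 3, at 866, 846 and 834 CPM. EGFP 2, at 765 CPM, lay below RXRa 2 at 793 CPM. The flat median therefore does not show that the order was particular to projection neurons.

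All 24 projection neuron genes had a log2 fold change above 0, between 0.03 and 0.34, and 0 of 24 had an unadjusted p under 0.05. Their median was 0.21, and it was 0.06 without RXRa 1. All 22 genes of dopamine and cAMP signalling, which overlap that list, were also above 0, with a median of 0.21 and 0.05 without RXRa 1. The 12 D1 markers gave a median of 0.22 and 0.07 without RXRa 1. Gad2, an enzyme of GABA synthesis, was at 124, 152, 203, 130 and 129 CPM in EGFP 1 to 5 and at 266, 135, 144 and 202 CPM in RXRa 1, 2, 3 and 5. Its log2 fold change was 0.34 (SE 0.23, -0.12 to 0.81), and 0.12 without RXRa 1. Meis2, a homeodomain transcription factor of striatal neurons, gave 0.33 (SE 0.23) and 0.18 without that library.

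Receptor and channel genes also lay mostly above 0. Of 13 GABA-A receptor genes 12 were above 0, with a median of 0.20, and of 24 glutamate receptor genes 18 were, with a median of 0.18. Without RXRa 1 those medians were 0.09 and 0.09. Of 25 potassium channel genes 23 were above 0 and 1, Kcnh5, had an unadjusted p under 0.05 (0.0385 by edgeR), near the 3.02% of all genes tested that did. Kcnh5 was at 194, 181, 199, 191 and 203 CPM in EGFP 1 to 5 and at 226, 221, 200 and 204 CPM in RXRa 1, 2, 3 and 5, a log2 fold change of 0.14 (SE 0.06, 0.01 to 0.26). Only RXRa 3 fell among the controls. Kcnip4, an auxiliary subunit of A-type potassium channels, was the most abundant member at 1508 to 2764 CPM in EGFP and 1788 to 3170 CPM in RXRa libraries, with a log2 fold change of 0.40 (SE 0.26, -0.13 to 0.94). The serotonin receptor gene Htr2c gave 0.41 (SE 0.19, 0.03 to 0.78, edgeR adjusted p = 0.978) from 122, 124, 186, 140 and 134 CPM in EGFP 1 to 5 and 239, 173, 148 and 190 CPM in RXRa 1, 2, 3 and 5. EGFP 3 lay above RXRa 2 and 3, and the fold change was 0.27 without RXRa 1.

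Sodium and calcium channel genes gave 14 of 21 above 0 and a median of 0.12, with Scn1a, a sodium channel subunit, at 0.21 (SE 0.14, -0.07 to 0.48). Of 18 opioid and other receptor genes coupled to G proteins 12 were above 0, and the mu opioid receptor gene Oprm1 gave 0.10 (SE 0.08, -0.05 to 0.26). Of 11 D2 markers tested 5 were above 0 and 6 below, with a median of -0.02. The median hides a wide range. Penk, the highest, gave 0.63 (SE 0.46, -0.31 to 1.57) and 0.01 without RXRa 1. Gpr6 of that list gave 0.61 (SE 0.44, -0.29 to 1.51) and 0.25 without RXRa 1. Drd2 was at 64.4, 71.2, 67.3, 62.0 and 62.3 CPM in EGFP 1 to 5 and at 106, 65.1, 66.3 and 73.1 CPM in RXRa 1, 2, 3 and 5, a log2 fold change of 0.25 (SE 0.22, -0.19 to 0.69) and 0.06 without RXRa 1. RXRa 1 was the highest library for Drd2, RXRa 5 lay just above the highest control, and RXRa 2 and 3 lay inside the control range.

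**Figure D3:**
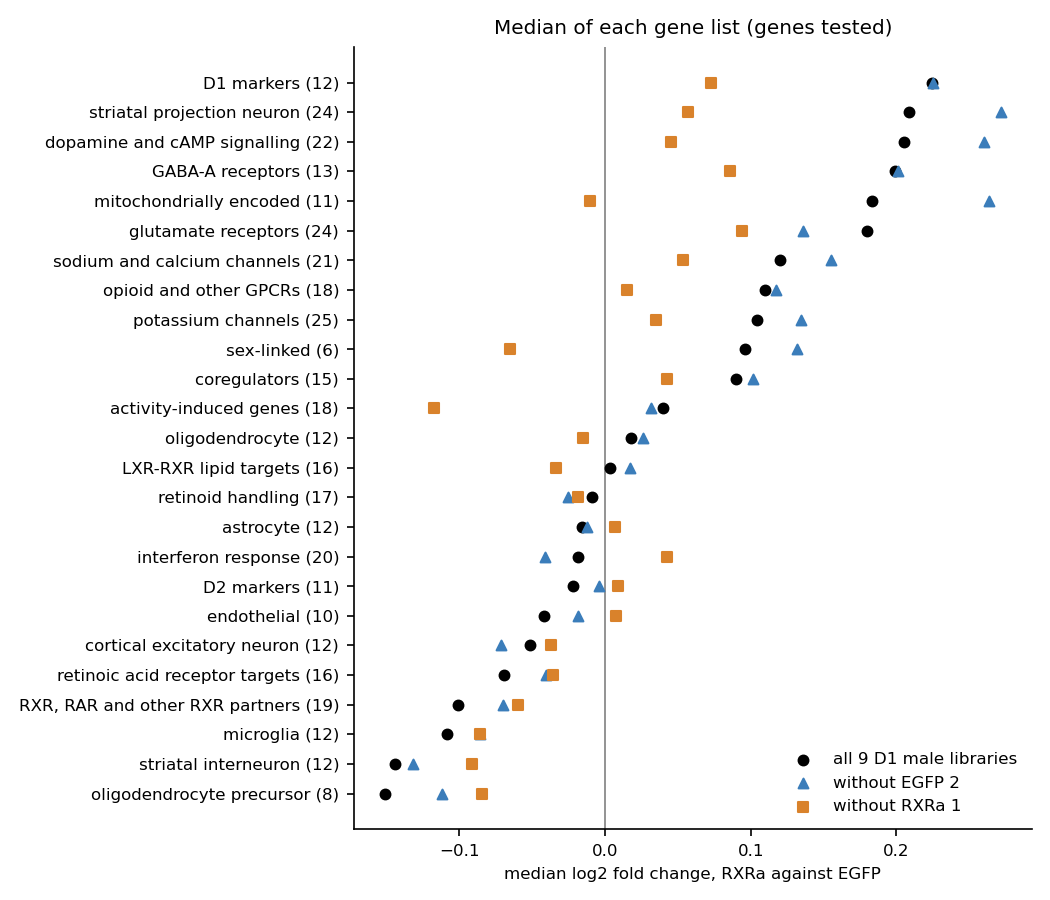
Median log2 fold change of 25 gene lists with all 9 male D1 libraries (black circles), without EGFP 2 (blue triangles) and without RXRa 1 (orange squares), with the number of genes tested in brackets. The D1 markers move from 0.22 to 0.07 without RXRa 1 and the projection neuron list from 0.21 to 0.06, while the interneuron list lies at -0.14 and the cortical neuron list at -0.05 with all libraries; the ribosomal-repeat list is outside the plot.

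The genes closest to RXRa in function were read next, beginning with its partners. Of 19 genes for RXRs, retinoic acid receptors and other partners, 5 had a log2 fold change above 0 and 14 below, between -0.20 and 0.32, with a median of -0.10. None of the 19 had an unadjusted p under 0.05, all 19 intervals lay inside ±1, and 15 lay inside ±0.5. The paralogs Rxrb and Rxrg gave 0.07 (SE 0.15, -0.23 to 0.38) and 0.01 (SE 0.16, -0.31 to 0.33). Among retinoic acid receptors, Rara gave -0.17 (SE 0.15), Rarg -0.14 (SE 0.11) and Rarb 0.32 (SE 0.24). The liver X receptor genes Nr1h2 and Nr1h3 gave -0.13 (SE 0.19) and -0.11 (SE 0.11), and Ppard, whose product pairs with RXR in fatty acid responses, gave -0.20 (SE 0.13, -0.47 to 0.06). Intervals on this list do not separate transcripts from background, as Nr1i2, also listed, averaged 38.2 CPM here and 0.0232 CPM in bulk.

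Rarb, at once an RXR partner and a classical retinoic acid target, was the most abundant of them. It was at 580, 563, 947, 701 and 619 CPM in EGFP 1 to 5 and at 1106, 742, 633 and 923 CPM in RXRa 1, 2, 3 and 5. EGFP 3 was the second highest of the 9 libraries, and RXRa 2, 3 and 5 lay inside the control range. The log2 fold change was 0.32 (95% interval -0.16 to 0.80, edgeR adjusted p = 0.978) and 0.17 without RXRa 1. In D1 nuclei of females it was 0.62 and in D2 nuclei of males 0.41, and the difference from either was not called.

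Rarb and Cyp26a1, the gene of an enzyme that clears retinoic acid, have known response elements, so their promoters are shown beside their values. Both windows run from 250 bases before to 50 bases after a RefSeq start on GRCm38.p6, and are written 5′ to 3′ on the gene's strand. Capitals mark direct repeats of a receptor half-site spaced by 5 bases (DR5). The Rarb window is chr14:16575427-16575726 on the minus strand, and its repeat lies 53 to 37 bases before the start. The Cyp26a1 window is chr19:37697558-37697857 on the plus strand, with the repeat read on the opposite strand, 32 to 16 bases before the start.
Rarb: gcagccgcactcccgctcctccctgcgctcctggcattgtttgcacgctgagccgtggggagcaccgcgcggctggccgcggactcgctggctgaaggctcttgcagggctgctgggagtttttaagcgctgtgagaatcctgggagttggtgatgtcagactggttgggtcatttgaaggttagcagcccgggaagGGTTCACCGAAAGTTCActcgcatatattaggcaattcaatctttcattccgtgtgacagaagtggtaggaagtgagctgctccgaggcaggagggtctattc
Cyp26a1: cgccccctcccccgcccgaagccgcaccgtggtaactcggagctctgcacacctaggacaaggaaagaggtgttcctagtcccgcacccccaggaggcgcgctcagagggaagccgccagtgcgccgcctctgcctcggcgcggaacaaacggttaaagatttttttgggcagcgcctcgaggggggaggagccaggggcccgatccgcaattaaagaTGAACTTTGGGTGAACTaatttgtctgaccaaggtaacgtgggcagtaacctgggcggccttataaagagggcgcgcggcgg
The Rarb motif searched was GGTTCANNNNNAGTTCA, on both strands, found in 2 of 32851 RefSeq promoter windows (0.00609%). The Cyp26a1 motif was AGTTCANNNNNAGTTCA, found in 8 windows (0.0244%). Of the 16 retinoic acid receptor targets listed, 8 matched a RefSeq promoter and 2 of these held a DR5, the pair shown. Both motifs were taken from this pair, so its 2 matches were fixed in advance and do not test the list. A DR5 built from another half-site was found in 3 windows (0.00913%), of Gm40135, Gm43837 and Ppbp. Over all promoters, 13 of 27025 genes held a DR5 of any of these patterns, a count that includes the pair. A match describes these letters and not binding. Cyp26a1 itself was low, at 2.92, 3.42, 2.73, 3.01 and 3.62 CPM in EGFP 1 to 5 and at 2.84, 2.56, 3.25 and 2.65 CPM in RXRa 1, 2, 3 and 5. The groups overlapped, and the log2 fold change was -0.14 (SE 0.13, -0.41 to 0.12).

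Of all 16 retinoic acid receptor targets, 7 were above 0 and 9 below, with a median of -0.07, and 0 had an unadjusted p under 0.05. Cyp26b1, the Cyp26a1 paralog, gave -0.15 (SE 0.13, -0.40 to 0.11) and Dhrs3, a retinaldehyde reductase, gave -0.08 (SE 0.07, -0.22 to 0.07). The lowest value was -0.33 for Hoxb1, at 0.503 to 1.55 CPM in RXRa and 1.22 to 2.10 CPM in EGFP libraries. All 16 intervals lay inside ±1 and 10 inside ±0.5. Of 17 genes that make, carry or degrade retinoids, 8 were above 0 and 9 below, with a median of -0.01 and 14 intervals inside ±0.5. Aldh1a1 and Aldh1a2, both retinaldehyde dehydrogenases, gave -0.04 (SE 0.10) and -0.10 (SE 0.09).

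Lipid genes controlled by liver X receptors with RXR were split evenly, 8 above and 8 below 0 of 16, with a median of 0.00. Scd1, a fatty acid desaturase, was the only member with an unadjusted p under 0.05 (0.0184 by edgeR), beside 3.02% of all genes. It was at 11.8, 10.4, 8.88, 9.76 and 9.27 CPM in EGFP 1 to 5 and at 9.05, 7.17, 8.45 and 8.39 CPM in RXRa 1, 2, 3 and 5. RXRa 1 lay above EGFP 3, so the groups overlapped, and the log2 fold change of -0.28 (SE 0.11, -0.51 to -0.05, edgeR adjusted p = 0.978) was not called. The cholesterol exporters Abca1 and Abcg1 gave -0.02 (SE 0.08, -0.19 to 0.15) and -0.02 (SE 0.12, -0.26 to 0.22). Srebf1, a regulator of fatty acid synthesis, gave -0.01 (SE 0.08, -0.18 to 0.15).

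Coregulators that RXR dimers recruit gave a median of 0.09, with 13 of 15 above 0 and 0.04 without RXRa 1. Activity-induced genes gave 10 above and 8 below 0 of 18, with a median of 0.04 and -0.12 without RXRa 1. Fos gave 0.03 (SE 0.24, -0.46 to 0.52) and Npas4 0.06 (SE 0.26, -0.46 to 0.58). Of 20 interferon response genes, 6 were above 0 and 14 below, with a median of -0.02, and Mx2 gave -0.20 (SE 0.11).

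The marker lists of other cells had counts in every library, but genes with no bulk count also had counts there. Over 1576 such coding genes on autosomes, of at least 5 kb, the median was 0.452 to 0.540 CPM per kb of gene. A marker at a few CPM, such as Tmem119 or Sox10, therefore does not show that its cell type was present. The summed level of 12 microglia genes was 175 to 217 CPM in EGFP and 169 to 191 CPM in RXRa libraries, and 11 of 12 were below 0. Tmem119, a microglia marker, was at 3.37, 4.56, 3.07, 3.09 and 3.24 CPM in EGFP 1 to 5 and at 1.55, 1.80, 2.85 and 3.38 CPM in RXRa 1, 2, 3 and 5. RXRa 1 and 2 were the lowest, RXRa 5 was as high as EGFP 1, and the log2 fold change was -0.49 (SE 0.21, -0.93 to -0.05, edgeR adjusted p = 0.978). It was -0.41 without EGFP 2 and -0.35 without RXRa 1 (edgeR unadjusted p of 0.0733 and 0.129). P2ry12, the only gene of the microglia list above 0, gave 0.22 (SE 0.12, -0.02 to 0.45). Of 8 oligodendrocyte precursor genes 7 were below 0, the sums being 115 to 119 CPM in EGFP and 110 to 119 CPM in RXRa libraries. Sox10 of that list gave -0.33 (SE 0.14, -0.61 to -0.05). Of 12 striatal interneuron genes 2 were above 0, with a median of -0.14, and Chat, the acetylcholine synthesis gene of cholinergic interneurons, gave -0.15 (SE 0.08, -0.31 to 0.02). Of 12 cortical excitatory neuron genes 4 were above 0, with a median of -0.05. Mitochondrially encoded genes gave 9 of 11 above 0, with a median of 0.18 and -0.01 without RXRa 1. The sums of 12 astrocyte genes were 705 to 834 and 717 to 866 CPM, those of 12 oligodendrocyte genes 223 to 241 and 222 to 267 CPM, and those of 10 endothelial genes 452 to 489 and 415 to 484 CPM. The part of other cells in any result was not tested.

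Among genes whose groups did not overlap, 20 were read individually, the 10 with the smallest unadjusted p in each direction at a mean of at least 1 CPM (Gm-numbered genes, Rik clone names and symbols with -ps left out). None was called, and all 20 had an edgeR adjusted p of 0.978. Those lower with RXRa began with Cd52, a surface glycoprotein of lymphocytes. Cd52 was at 5.60, 5.00, 4.73, 5.05 and 4.73 CPM in EGFP 1 to 5 and at 3.59, 3.69, 4.07 and 3.63 CPM in RXRa 1, 2, 3 and 5. The log2 fold change was -0.42 (SE 0.12, -0.66 to -0.18), and it was -0.15 in D1 females and 0.04 in D2 males. Cd52 overlaps Crybg2 on the other strand, and the use of strand in counting is not given in the sources used here.

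Pafah1b3, a catalytic subunit of a platelet-activating factor acetylhydrolase, gave the lowest log2 fold change of the 20. It was at 1.29, 2.54, 1.51, 1.81 and 1.60 CPM in EGFP 1 to 5 and at 0.750, 0.671, 1.25 and 1.13 CPM in RXRa 1, 2, 3 and 5. The gap between the groups was narrow, from 1.25 to 1.29 CPM, and the fold change was -0.79 (SE 0.24, -1.29 to -0.30). Rdh16f2, of a retinol dehydrogenase family, was tighter. It was at 9.53, 9.73, 9.66, 9.61 and 9.38 CPM in EGFP 1 to 5 and at 7.33, 7.21, 8.27 and 7.90 CPM in RXRa 1, 2, 3 and 5, a log2 fold change of -0.32 (SE 0.11, -0.54 to -0.09). It was 0.03 in D1 females and -0.10 in D2 males.

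Zfp429, a zinc finger gene, gave -0.34 (SE 0.10) and Cst6, a cystatin protease inhibitor, gave -0.50 (SE 0.17). Cst6 pointed the other way in the other comparisons, at 0.32 in D1 females and 0.57 in D2 males, and neither difference passed the adjusted test (edgeR adjusted p of 1 and 0.798). Chrnb1, a muscle-type acetylcholine receptor subunit, gave -0.36 (SE 0.13), Ctsll3, a cathepsin L-like gene, -0.39 (SE 0.13), and Haus5, of the augmin complex, -0.33 (SE 0.12). The olfactory receptor genes Olfr102 and Olfr807 gave -0.41 (SE 0.13) and -0.46 (SE 0.15), their levels lying between 1.50 and 3.43 CPM.

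Among the 10 higher with RXRa, Cst11, a cystatin, was at 2.75, 2.37, 2.29, 2.97 and 2.86 CPM in EGFP 1 to 5 and at 3.05, 3.56, 3.25 and 4.51 CPM in RXRa 1, 2, 3 and 5, a log2 fold change of 0.42 (SE 0.13, 0.16 to 0.68). Gpx2, a glutathione peroxidase, was at 1.25, 1.49, 1.32, 1.31 and 1.14 CPM and at 1.71, 1.76, 1.60 and 1.62 CPM in the same order, a log2 fold change of 0.38 (SE 0.14). It overlaps Fntb on the other strand. Prdx4, a peroxiredoxin of the endoplasmic reticulum, was at 5.49 to 6.05 CPM in EGFP and at 7.82, 7.76, 6.35 and 6.28 CPM in RXRa 1, 2, 3 and 5, with a log2 fold change of 0.26 (SE 0.12) that was -0.07 in D1 females. RXRa 1 and 2 lay well above RXRa 3 and 5.

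Zfp512, the most abundant of the 20, gave 0.15 (SE 0.07, 0.01 to 0.28) and 0.26 in D2 males. Fancb, of the Fanconi anaemia core complex, gave 0.33 (SE 0.15). Snora35, a small nucleolar RNA inside Htr2c on the same strand, gave 1.04 (SE 0.43) and 0.50 without RXRa 1, which was at 4.55 CPM against 0.869 to 1.51 CPM elsewhere. The olfactory receptor gene Olfr1344 gave 0.45 (SE 0.17). The annotated pseudogene Scgb2b6 and the noncoding AC121973.1 and AC148021.1 gave 0.43 (SE 0.16), 0.39 (SE 0.16) and 0.25 (SE 0.11).

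Many of the 20 were low in bulk tissue. Over 11864 tested genes with no count in any bulk library, the median level in the male D1 libraries was 0.981 to 1.12 CPM. Scaled by length, coding genes of at least 5 kb with no bulk count had a median of 0.452 to 0.540 CPM per kb. A longer gene at a few CPM, as several of the 20 were, need not lie above that background. Of the 20 genes, 11 had a mean below 1 CPM in bulk and 2 had no bulk count. The groups did not overlap for 55 higher and 125 lower of those 11864 genes (0.464% and 1.05%). Of 11117 genes with at least 10 CPM in bulk, the groups did not overlap for 14 higher and 42 lower (0.126% and 0.378%). The level of genes silent in bulk did not separate the vectors (exact two-sided permutation p = 0.349), and its part in these genes was not tested.

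**Figure D4:**
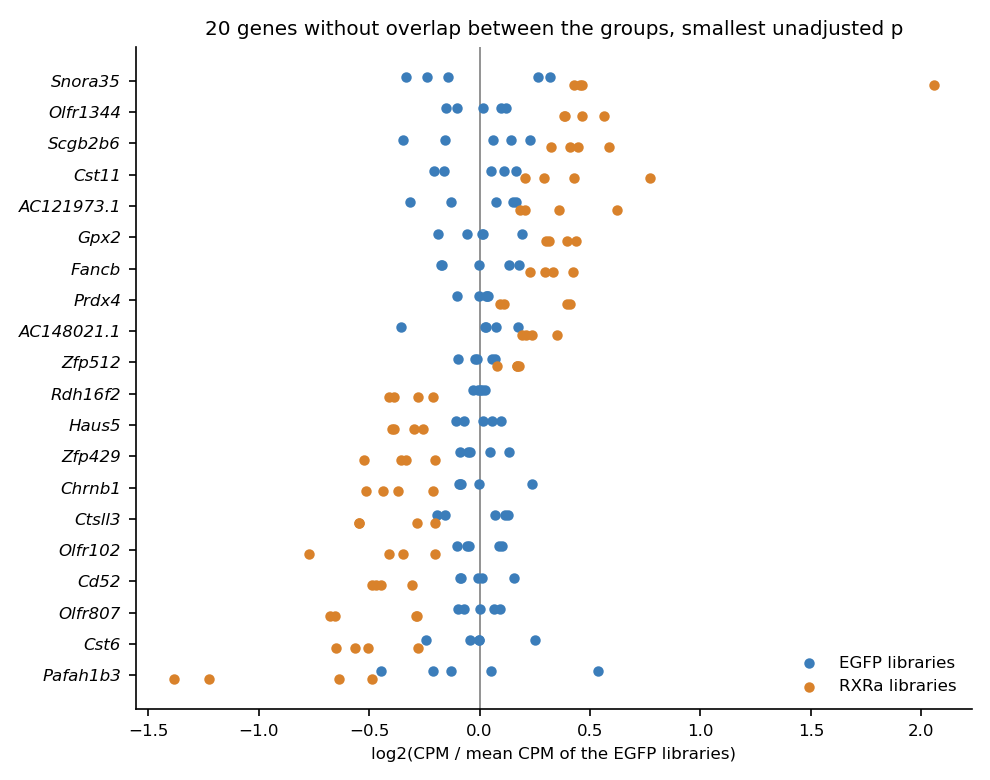
Level of 20 genes in each male D1 library as log2 of CPM over the mean of the EGFP libraries, with EGFP libraries in blue and RXRa libraries in orange. The groups do not overlap for any of the 20, as chosen, and Snora35 in RXRa 1 lies far from the other 3 RXRa libraries.

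The smallest p-values of the whole comparison came mainly from EGFP 2. Gm19951, a noncoding gene counted as a ribosomal-repeat gene here, was at 4074 CPM in EGFP 2 and at 2.97 to 5.46 CPM in the other 8 libraries. Its log2 fold change was -7.67 (SE 1.49, edgeR adjusted p = 0.506) and 0.00 without EGFP 2. Gm42418 was at 9948 CPM in EGFP 2 and at 75.1 to 250 CPM elsewhere, with -3.83 (SE 1.00) and 0.63 without EGFP 2. Lars2, the mitochondrial leucyl-tRNA synthetase gene, was at 12380 CPM against 78.5 to 99.7 CPM, with -4.85 (SE 1.01) and 0.10 without EGFP 2.

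In all, 14 genes were at least 10 CPM in EGFP 2 and more than 10 times higher there than in any other library. They include CT010467.1, annotated as ribosomal RNA, at 23640 CPM in EGFP 2, and the coding genes Cdk8, Jarid2, Filip1l, Cmss1, Sspn, Il31ra and Arhgap21, named here after their values were seen. EGFP 2 was the highest library for 14 of the 20 genes with the smallest p, and 7 of the 20 had an unadjusted p under 0.05 without it. Over the 6 listed ribosomal-repeat genes the median log2 fold change was -2.25, and 0.52 without EGFP 2. The 2 genes Gm19951 and Gm42418 took 1.31% of EGFP 2's counts and 0.00817% to 0.0231% of those of the other libraries.

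**Figure D5:**
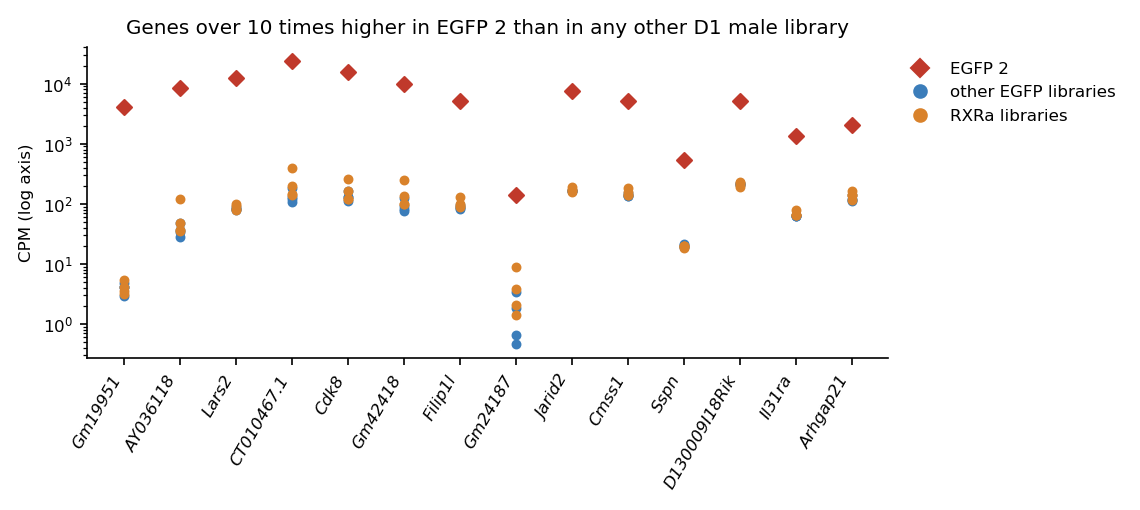
CPM on a log axis of 14 genes in EGFP 2 (red diamonds), the other 4 EGFP libraries (blue) and the 4 RXRa libraries (orange), in order of the ratio of EGFP 2 to the mean of the others. EGFP 2 stands alone for each gene, such as Lars2 at 12380 CPM against 78.5 to 99.7 CPM.

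Transcripts of the sex chromosomes set RXRa 1 apart. Xist, the RNA that coats the inactive X of females, was at 21.7 CPM in RXRa 1 and at 2.29 to 3.48 CPM in the other 8 male D1 libraries, and its antisense partner Tsix was at 27.3 against 5.88 to 8.72 CPM. In the D1 libraries of females Xist was at 119 to 286 CPM. Whether RXRa 1 held some female material was not tested. The Y-linked Ddx3y was at 27.4 CPM in RXRa 1 and at 13.1 to 24.0 CPM in the others, so male transcripts were present in all 9. The Xist log2 fold change was 1.55 (SE 0.43, edgeR adjusted p = 0.978) and 0.18 without RXRa 1. RXRa 1 was also highest for Penk, at 212 CPM against 30.1 to 129 CPM.

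The male D1 comparison was set against D1 nuclei of females and D2 nuclei of males, which share no library with it. Neither had a called gene (0 of 43902 each), with 2757 (6.28%) and 8656 (19.7%) at an unadjusted p under 0.05. The difference of the RXRa effect between male and female D1 nuclei was called for 0 genes by edgeR, with 912 (2.08%) at an unadjusted p under 0.05. Between D1 and D2 nuclei of males it was also called for 0, with 2664 (6.07%). Of the 1326 genes with a small p in male D1 nuclei, 880 (66.4%) had the same sign in D1 females, where all genes gave 61.1%, and 830 (62.6%) in D2 males, where all genes gave 60.9%.

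The smallest p for the sex difference belonged to C920009B18Rik, a transcribed pseudogene that overlaps Raet1e, which encodes a ligand of an activating receptor on natural killer cells. In males it was at 2.61, 2.89, 3.46, 1.93 and 2.14 CPM in EGFP 1 to 5 and at 3.48, 3.73, 4.10 and 2.75 CPM in RXRa 1, 2, 3 and 5. In females it was at 3.51, 3.65, 3.62, 4.00 and 2.28 CPM in 5 EGFP libraries and at 1.38, 2.03, 2.04 and 1.44 CPM in 4 RXRa libraries. The groups overlapped in males and did not in females. The fold changes were 0.46 (SE 0.17) in males and -0.96 (SE 0.19) in females, and their difference was 1.42 (SE 0.26, edgeR adjusted p = 0.137). DESeq2 gave an adjusted p of 0.00401 for it, limma voom 0.0335, and edgeR without male EGFP 3 gave 0.0289. For Raet1e, on the same strand, the difference was 0.94 (SE 0.19, edgeR adjusted p = 0.369), and DESeq2 gave an adjusted p of 0.0218. Reads of the pair may be shared, so these are uncertain as separate genes.

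Between populations the smallest p belonged to the noncoding 1700047G07Rik, with 0.40 (SE 0.16) in D1 males, -0.72 (SE 0.19) in D2 males and a difference of 1.12 (SE 0.25, edgeR adjusted p = 0.798). It had no bulk count and lay between 1.07 and 2.76 CPM in the male libraries.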

How the data were processed

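Counts per gene were deposited by the authors as whole numbers with no normalization, 1 table for 36 sorted libraries and 1 for 8 bulk libraries. Per the submitters' processing notes, the tools were FastQC, Trimmomatic, HISAT2, Picard, Subread and featureCounts, with build GRCm38. Versions, annotation release, use of strand and treatment of intron reads are not given in the sources used here, so overlapping genes may share reads. Per the labels' protocols, the sorted libraries were ribosomal-RNA-depleted total RNA, read as pairs of 150 bp to a stated minimum of 40 M reads. Nuclear total RNA also holds unspliced transcripts.

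The 35 sorted libraries with a group were fitted together as 8 groups of population, sex and vector with edgeR 4.0.16 in R 4.3.3 (quasi-likelihood test, filterByExpr by group, TMM). For 1 library the title and the vector label disagree, and it was left out. Library sizes and tests did not include the 2 vector sequences. Genes with a Benjamini-Hochberg adjusted p under 0.05 over all genes tested were called. Standard errors come from the fold change and the F statistic. Vector sequences, endogenous Rxra and library measures went into exact permutation tests, two-sided, with SciPy 1.17.1. The fit was also run on simulated counts with the same spread for every gene and library. That setting differs from libraries such as EGFP 2, so it checks the code and not the error rate in these data. DESeq2 1.42.0 and limma 3.58.1 (voom) were alternatives, beside other scalings, filters, covariates and left-out libraries. Symbols and positions are from GENCODE M21 on GRCm38, which holds 55394 of 55487 identifiers. No replicate pair agreed within sampling noise (chi-square per degree of freedom 1.79 to 63.6). Intervals come from the spread between libraries, and a level of a few counts is also limited by counting error.

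The libraries and gene lists were chosen with earlier results of these data known. Genes named are the D1 markers, Rxra, Gm19951, Gm42418, up to 3 genes of the smallest p and the most abundant gene of each list, genes that belong to the described pathways, the gene of the smallest p for each difference of effects, and 20 genes without overlap, chosen by the smallest unadjusted p at a mean of at least 1 CPM.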

Additional observations from a re-analysis of the deposited data

Results flagged for a closer look

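Each value below lay apart from the rest of its group by Dixon's test at the 95% level, which flags about 1 in 20 groups by chance. In all, 28 of 254 groups tested were marked, and many share a library.

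EGFP 2 was apart for the share of its counts in Gm19951 and Gm42418, at 1.31%, and for the level of Gm19951 (4074 CPM), Gm42418 (9948 CPM) and Lars2 (12380 CPM). It was also highest for Slc17a7 (27.9 CPM), Chrnb1 (10.2 CPM), Tmem119 (4.56 CPM) and Hoxb1 (2.10 CPM), and lowest for Aldh1a1 (52.4 CPM).

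EGFP 3 was highest of its group for Grik2 (1318 CPM), Ryr3 (1021 CPM), Cacna1e (855 CPM), Kcnq3 (583 CPM), Slc4a4 (566 CPM), Camk4 (360 CPM) and Gabrb2 (266 CPM). The same held for Ncoa1 (232 CPM), Htr2c (186 CPM), Prkar2b (150 CPM) and the Y-linked Kdm5d (53.0 CPM).

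RXRa 1 was highest of its group for Xist (21.7 CPM), Tsix (27.3 CPM), mt-Nd5 (54.0 CPM), mt-Nd4 (18.2 CPM) and Snora35 (4.55 CPM), and lowest for Ret (19.6 CPM) and Oas1a (3.53 CPM). RXRa 3 was lowest for Zfp512 (26.5 CPM).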

How the results depend on the processing

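The count of 0 called genes held under all 24 alternatives, and the number at an unadjusted p under 0.05 ran from 710 to 2417. The difference between sexes was called for 2 genes by DESeq2 and for 2 by limma voom (Raet1e and C920009B18Rik each time), and for 0 to 1 when single libraries were left out. Silent-gene density as a covariate and leaving out both EGFP 2 and RXRa 1 were chosen after seeing the data.

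Same-numbered libraries were correlated at -0.49 to -0.21, inside the -0.53 to 0.51 of differently numbered pairs, so no pairing by number was seen. With 4 such pairs, these correlations cannot show whether the numbers follow a batch. With the replicate block 0 genes were called and 932 had an unadjusted p under 0.05 (0 also for both differences of effects).

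Over 121 named genes no alternative gave an adjusted p under 0.0584, and 14 genes changed sign under some alternative; the cause was not tested except where a library was left out. Leaving out single libraries gave log2 fold changes of -7.99 to 0.0045 for Gm19951, -4.21 to 0.63 for Gm42418, -0.016 to 0.060 for Adk, -0.097 to 0.018 for Aldh1a1, -0.014 to 0.11 for Ifih1, -0.13 to 0.0035 for Rorb, -0.025 to 0.30 for mt-Nd5, -5.16 to 0.10 for Lars2, -0.064 to 0.23 for Kdm5d and -0.066 to 0.15 for Uty. In the fit of 9 libraries without EGFP 2, the changed signs were Gm19951 0.0057, Gm42418 0.63, Ifih1 -0.0057 and Lars2 0.11. Without both EGFP 2 and RXRa 1 they were Gm42418 0.24, Pecam1 0.010, Slc17a7 0.063, Lars2 0.038, Kdm5d -0.072 and Uty -0.070. With library totals only they were Adk -0.024, Acaca -0.032, Mbp -0.0079 and Uty -0.0068. With silent-gene density as a covariate they were Aldh1a1 0.018, Rorb 0.000365 and Uty -0.015, and with silent-gene level Aldh1a1 0.018 and Rorb 0.0011.

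Leaving out single libraries, the difference in total count ran from -1359770 to 2355590, that in the share of counts in Gm19951 and Gm42418 from -0.321 to 0.0043 percentage points, and that in the mitochondrial share from -0.00017 to 0.00828 percentage points. Depth limits genes near 1 CPM: 3 counts correspond to 0.111 to 0.246 CPM per library.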
